A study of Mus musculus with 6 samples.

Results

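Amino acids, above all glutamine, are among the strongest known stimuli of pancreatic alpha cells, the islet cells that secrete glucagon. The transporters described here carry them across the plasma membrane. They are the 10 genes Slc3a2, Slc7a5, Slc7a11, Slc7a1, Slc7a3, Slc38a1, Slc38a2, Slc38a5, Slc1a4 and Slc1a5, taken by symbol from the 55487 genes measured. The set was chosen because of this role of amino acids and because Slc3a2 and Slc38a5 differed in opposite directions between the treatments. The differences between treatments of these 10 genes are therefore given as a description, and no test is read from them.

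RNA was sequenced from αTC1, a mouse glucagonoma line that makes glucagon. Both groups were the same wild-type line, with 3 libraries treated with G786-1089 and 3 treated with DMSO, its solvent. The labels of the series describe G786-1089 as a small molecule inhibitor of SMNDC1, a Tudor domain protein of the splicing machinery, and give no dose or duration. Here it is regarded as the inhibitor that the study sequenced under the name compound 1. Nothing in the labels says that the libraries of a group came from separate cultures, so p-values measure the spread between these libraries, which may be technical. Of its cell culture work in general, the study states that a single batch of cells was shared out at random among the treatments of a replicate, whose samples were handled together. Which library letter belongs to which replicate is not given, so the fit with the letter as a block is printed where it changes a call. A glucagonoma line is a dividing tumour model of the alpha cell.

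Transport across the plasma membrane divides among a few families. The SLC7 light chains (LAT, y+LAT and xCT types) need the heavy chain CD98hc, the product of Slc3a2, to reach the membrane. A disulphide bond links them to it, and they exchange one amino acid for another. The SLC7 cationic transporters work without a heavy chain and carry arginine, lysine and ornithine. The SLC38 family (SNAT) takes up glutamine and other small neutral amino acids with sodium, and the SLC1 members ASCT1 and ASCT2 exchange neutral amino acids such as alanine, serine, cysteine and glutamine. In mice, blocking glucagon action raises circulating amino acids and Slc38a5 in alpha cells, which is why this gene is known in islet biology.

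Totals were 59070705 to 69480568 counts in the DMSO libraries and 70150880 to 94747943 in the G786-1089 libraries, so every inhibitor library was deeper than every DMSO library. Of the alpha cell markers, 7 reached an FPKM of 1 in at least 1 library, while Gc was listed at 0 in all 6. FPKM, the deposited values scaled to transcript length, is the unit on which levels of different genes are compared here. The summed FPKM of the alpha cell markers ranged from 18423 to 20817 in the DMSO libraries and from 3100 to 3734 in the inhibitor libraries, mostly glucagon (Gcg). Ins1, Pdx1, Sst, Hhex, Ppy, Pyy, Cpa1, Prss2, Ptf1a, Muc1, Col3a1, Cdh5 and Cd3e, markers of other islet, acinar, duct, stromal, endothelial and blood cells, were listed at 0 in every library. Summed acinar markers ranged from 4.46 to 10.6 FPKM with DMSO and from 13.6 to 21.8 with the inhibitor, from Cela1 alone among those above 1. Summed leukocyte markers ranged from 4.23 to 6.25 and from 5.85 to 13.9, mostly Cd68. Beta cell markers summed to 3.64 to 4.82 FPKM with DMSO and to 1.42 to 3.91 with the inhibitor, and delta cell markers, all but entirely Rbp4, to 234.7 to 262.5 and to 314.8 to 324.7. The part of depth and of these markers in the results below was not tested.

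Short stretches of the promoters are shown first so that the letters near the start sites of the members can be compared. RefSeq windows (GRCm38.p6) of 300 bases, 250 before and 50 after the start site, were at hand for 6 of the 10 members: Slc3a2, Slc7a11, Slc7a1, Slc38a2, Slc38a5 and Slc1a4. Those of Slc7a5, Slc7a3, Slc38a1 and Slc1a5 were not used here. Each window was searched on both strands for TGATGNAA (the C/EBP-ATF element), TGACNNNGC (the antioxidant response element), CACGTG (the E-box) and ACGTG (the core of the hypoxia response element, which lies within the E-box). Of all 32851 windows, 3.97% held the first, 12.4% the second, 7.15% the third and 19.6% the fourth. The matches among the members are printed on the strand of the gene, with the motif in capitals and its first base counted from the start site.
Slc7a11, first base at -66, chr3:50443662-50443689, minus strand: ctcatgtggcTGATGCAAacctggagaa
Slc7a11, first base at -47, chr3:50443643-50443670, minus strand: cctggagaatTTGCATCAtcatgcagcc
Slc1a4, first base at -4, chr11:20332700-20332727, minus strand: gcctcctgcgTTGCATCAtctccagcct
Slc7a1, first base at -11, chr5:148399897-148399925, minus strand: cggccgcgcgGCGCTGTCAttggtgccct
Slc38a2, first base at -27, chr15:96699737-96699765, minus strand: ccccgcccacTGACGCGGCgccccgccgc
Slc38a5, first base at -30, chrX:8271341-8271366, plus strand: agacaggtgaCACGTGtccctgttaa
Slc3a2, first base at -164, chr19:8714047-8714071, minus strand: aagacaaattCACGTttgttattct

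Slc7a11 and Slc1a4 thus held the C/EBP-ATF letters, Slc7a1 and Slc38a2 the antioxidant letters, and Slc38a5 an E-box. The window of Slc3a2 held none of the first 3 motifs and 1 hypoxia response core, which Slc38a5 also held within its E-box, once on each strand. The start sites of both leading members' windows lie inside the annotated genes, that of Slc3a2 at position 8713897 of chromosome 19. Of the 250 bases before it, 169 are annotated as exon for Slc3a2 and 128 for Slc38a5. A second window of Slc7a1, whose 250 upstream bases are all annotated as exon, held no match. A match describes letters in a window and not a bound site, and a window without a match says nothing of the factor.

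In DMSO-treated cells, one transporter stood far above the others. Slc38a5, the sodium-coupled glutamine, asparagine, histidine and serine transporter SNAT5, had a mean of 1875 ± 22.0 FPKM (SD, n = 3) and ranked 25th to 28th of all genes in the 3 libraries. Slc3a2 followed with 269 ± 9.42 FPKM. Together these genes made up 98.7% of the summed FPKM of the 10 members. Below them came Slc1a4, Slc38a2, Slc7a11, Slc38a1, Slc7a1, Slc7a5 and Slc1a5 with means from 11.5 down to 0.43 FPKM, and Slc7a3 was listed at 0. The ranges over libraries of neighbours in this order overlapped for Slc38a2 and Slc7a11, for Slc7a1 and Slc7a5, and for Slc7a5 and Slc1a5.

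With G786-1089 the first places changed hands. Slc3a2 stood first with 745 ± 33.1 FPKM and Slc38a5 second with 605 ± 52.1 FPKM, and their ranges did not overlap. Slc1a4 (21.2 ± 2.40 FPKM) and Slc38a2 (8.24 ± 0.85 FPKM) kept the next places. From Slc7a1 downwards each member overlapped its neighbour. The members summed to 2172 ± 28.9 FPKM with DMSO and to 1390 ± 59.2 FPKM with the inhibitor. As these are bulk samples, fewer cells expressing a gene and less RNA of it per cell cannot be told apart.

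**Figure D1:**
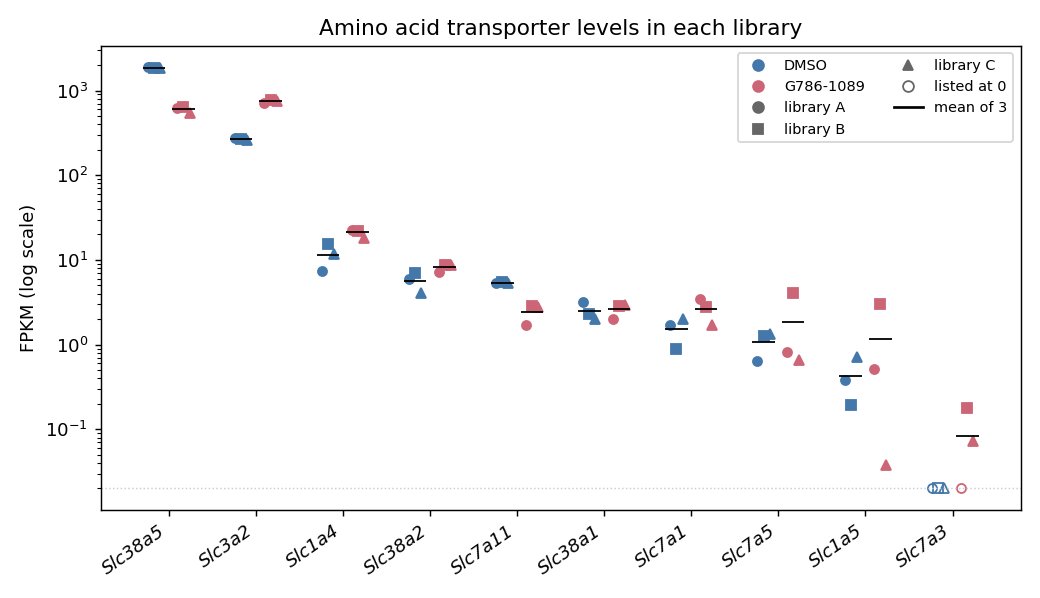
FPKM of the 10 amino acid transporters in each library, on a log axis, ordered by their mean with DMSO; marker shape gives the library letter, black lines give the mean of 3 libraries, and open markers on the dotted line are values listed at 0. Slc38a5 (1875 against 605 FPKM) and Slc3a2 (269 against 745 FPKM) exchange places between the treatments, while all others lie under 25 FPKM.

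Across all genes, 15082 had enough counts to be tested by edgeR's quasi-likelihood test. At an adjusted p under 0.05 in either direction, 14.8% of them were called, 6.98% higher and 7.8% lower with the inhibitor. With the letter as a block, 524 genes were called higher and 708 lower, in place of 1053 and 1177. Of the members, 9 could be tested. Slc3a2 was called higher, Slc7a11 and Slc38a5 lower, and 6 were not called. The median log2 fold change of the 9 was 0.78, beside 0.041 over all tested genes. Because the contrast chose the members, nothing is read from these counts. Libraries of the treatments did not overlap for 5 of the 9, namely Slc3a2, Slc38a2 and Slc1a4, which were higher, and Slc7a11 and Slc38a5, which were lower, beside 36.7% of all tested genes (18.2% higher and 18.5% lower). Under the filter used by the study (adjusted p no more than 0.1, with a log2 fold change of 1 or more in size), 1 member passed as higher and 2 as lower, beside 10.4% of all genes, 6.25% higher and 4.16% lower.

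The heavy chain gene Slc3a2 (ENSMUSG00000010095) lies on chr19:8706882-8723369, minus strand, in GRCm38. It was at 279, 269 and 260.5 FPKM in the DMSO libraries A, B and C and at 707, 766 and 763 FPKM in the inhibitor libraries. All 3 inhibitor libraries were above all 3 DMSO libraries, and within each treatment the spread was small. The log2 fold change was 1.47 with an SE of 0.055. Its longest transcript holds a stretch of up to 182 bases that 143 other genes carry at 95% identity or more, and 44 windows of read length (100 bases) occur exactly in other genes. How many of its counts came from that stretch was not tested.

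The light chains that pair with CD98hc were at far lower levels. Slc7a6 (y+LAT2, which exchanges cationic for neutral amino acids) was the most abundant of them, at 75.4% of their summed FPKM with DMSO and 86.7% with the inhibitor. It was at 20.6, 19.9 and 19.5 FPKM with DMSO and at 25.1, 30.9 and 24.3 FPKM with the inhibitor. Those libraries did not overlap, but the difference (log2 fold change 0.42, SE 0.13) did not pass the test, with an adjusted p of 0.0709 in edgeR. Slc7a7 and Slc7a8, the other y+LAT and LAT light chains, were listed at 0 in all libraries, and Slc7a10 reached at most 0.13 FPKM.

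Slc7a5 (LAT1, the exchanger for leucine and other large neutral amino acids) was at 0.64, 1.26 and 1.33 FPKM with DMSO and at 0.83, 4.08 and 0.67 FPKM with the inhibitor. The groups overlapped, and a single library set the mean. Its log2 fold change of 0.78 (SE 0.77) became -0.52 without inhibitor library B.

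Slc7a11 (xCT, the cystine-glutamate exchanger) was at 5.35, 5.45 and 5.36 FPKM with DMSO and at 1.72, 2.84 and 2.81 FPKM with the inhibitor. The groups did not overlap, and the log2 fold change was -1.13 with an SE of 0.22. Leaving out any 1 DMSO library raised its adjusted p in edgeR to 0.0632 to 0.0638. The last of the 12 exons of its 9223-base transcript holds a 373-base stretch (chr3:50370391-50370762) that is 96.2% identical to Tuba1b, an alpha tubulin gene. Altogether 9 genes matched such stretches of the transcript at 95.2% to 96.5% identity, though no 100-base window was exactly the same. Alpha tubulins were far more abundant and also lower with the inhibitor. Tuba1a was at 848 ± 21.9 FPKM with DMSO and at 204 ± 22.9 FPKM with the inhibitor, and Tuba1b at 827 ± 21.4 and 308 ± 44.7 FPKM. The value of Slc7a11 is therefore uncertain, and the share of its counts from tubulin reads was not tested.

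The light chains Slc7a5, Slc7a6, Slc7a7, Slc7a8, Slc7a10 and Slc7a11 summed to 26.5 ± 0.20 FPKM with DMSO and to 31.1 ± 5.80 FPKM with the inhibitor. The heavy chain over this sum was 10.2 ± 0.29 with DMSO, from 9.91 to 10.5, and 24.4 ± 3.71 with the inhibitor, from 20.3 to 27.4. Heavy chain RNA thus exceeded that of its light chains in every library and by a wider margin in each inhibitor library. The wider margin largely restates the difference of Slc3a2, which helped choose the set, and is no separate result. RNA levels do not measure how much of either protein was at the membrane.

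Slc38a5 (ENSMUSG00000031170) lies on chrX:8271133-8280179, plus strand, and shares no exon bases with another annotated gene, which holds for all 10 members. It was at 1899.9, 1864 and 1859.7 FPKM in DMSO libraries A, B and C and at 624, 644 and 546 FPKM in the inhibitor libraries. The highest inhibitor library lay far below the lowest DMSO library. The log2 fold change was -1.63 with an SE of 0.066, which is 3.09-fold lower as fitted from the counts. The gene took 0.422% of all counts with DMSO and 0.157% with the inhibitor, and its rank by FPKM moved from between 25 and 28 to between 100 and 132. Slc3a2 moved the other way, from ranks 393 to 418 to ranks 74 to 84. The ratio of Slc38a5 to Slc3a2 was 6.96 ± 0.17 with DMSO and 0.81 ± 0.087 with the inhibitor.

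**Figure D2:**
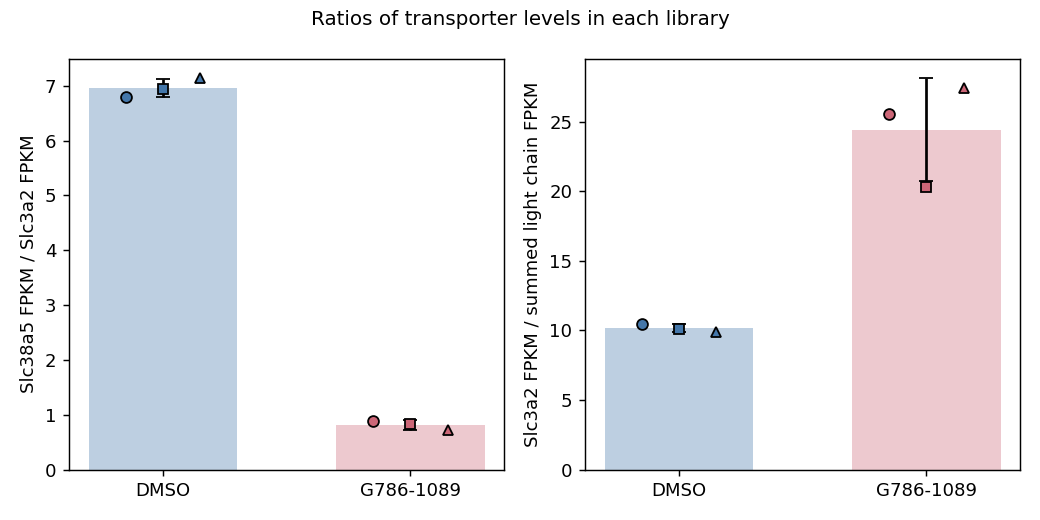
Ratios of FPKM in each library: Slc38a5 over Slc3a2 (left) and Slc3a2 over the summed light chains (right). Bars are means of 3 libraries, error bars are SD, and markers are libraries A (circle), B (square) and C (triangle). The first ratio is 6.96 with DMSO and 0.81 with G786-1089, and the second 10.2 and 24.4.

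Of the other SLC38 members, Slc38a2 (SNAT2, whose amount is known to follow amino acid supply) was at 5.92, 7.003 and 4.02 FPKM with DMSO and at 7.26, 8.83 and 8.63 FPKM with the inhibitor. Its lowest inhibitor library was just above its highest DMSO library, with a log2 fold change of 0.55 (SE 0.24). Slc38a1 (SNAT1, a glutamine transporter) was at 3.18, 2.29 and 2.02 FPKM with DMSO and at 2.03, 2.86 and 2.91 FPKM with the inhibitor. Those values overlapped, and the log2 fold change was 0.06 (SE 0.25), with a sign that turned when single libraries were left out and with offsets for gene length. Slc38a1 and Slc38a2 lie in the same stretch of chr15:96571418-97055956 as Slc38a4, another neutral amino acid transporter, whose difference had the opposite sign from Slc38a2 (below).

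Of the SLC1 members, Slc1a4 (ASCT1, which exchanges serine, alanine, cysteine and threonine) was at 7.50, 15.2 and 11.7 FPKM with DMSO and at 22.8, 22.2 and 18.4 FPKM with the inhibitor. The groups did not overlap although the DMSO libraries spread widely, and the log2 fold change was 0.89 (SE 0.26). It passed an adjusted p of 0.05 in only 6 of 17 alternative settings. Among the fits without a single library, only that without DMSO B passed (adjusted p = 0.0461 in edgeR). The contrast chose the members, so nothing is read from this. Slc1a5 (ASCT2, a glutamine exchanger of many dividing cells) was low, at 0.38, 0.19 and 0.71 FPKM with DMSO and at 0.52, 2.98 and 0.038 FPKM with the inhibitor. Inhibitor libraries lay both above and below all DMSO libraries. The log2 fold change of 1.46 (SE 1.33) became -0.61 without inhibitor library B.

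Among the cationic transporters, Slc7a1 (CAT1, the widespread arginine and lysine carrier) was at 1.72, 0.88 and 2.00 FPKM with DMSO and at 3.44, 2.79 and 1.71 FPKM with the inhibitor. The groups overlapped at their edges, and the log2 fold change was 0.79 (SE 0.40). Slc7a3 (CAT3, found mainly in brain) had no counts in any DMSO library and 0, 56 and 20 counts in inhibitor libraries A, B and C. It was too low to be tested. A count of 0 allows up to 3 counts, and no fold is given because 1 inhibitor library also had none.

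**Figure D3:**
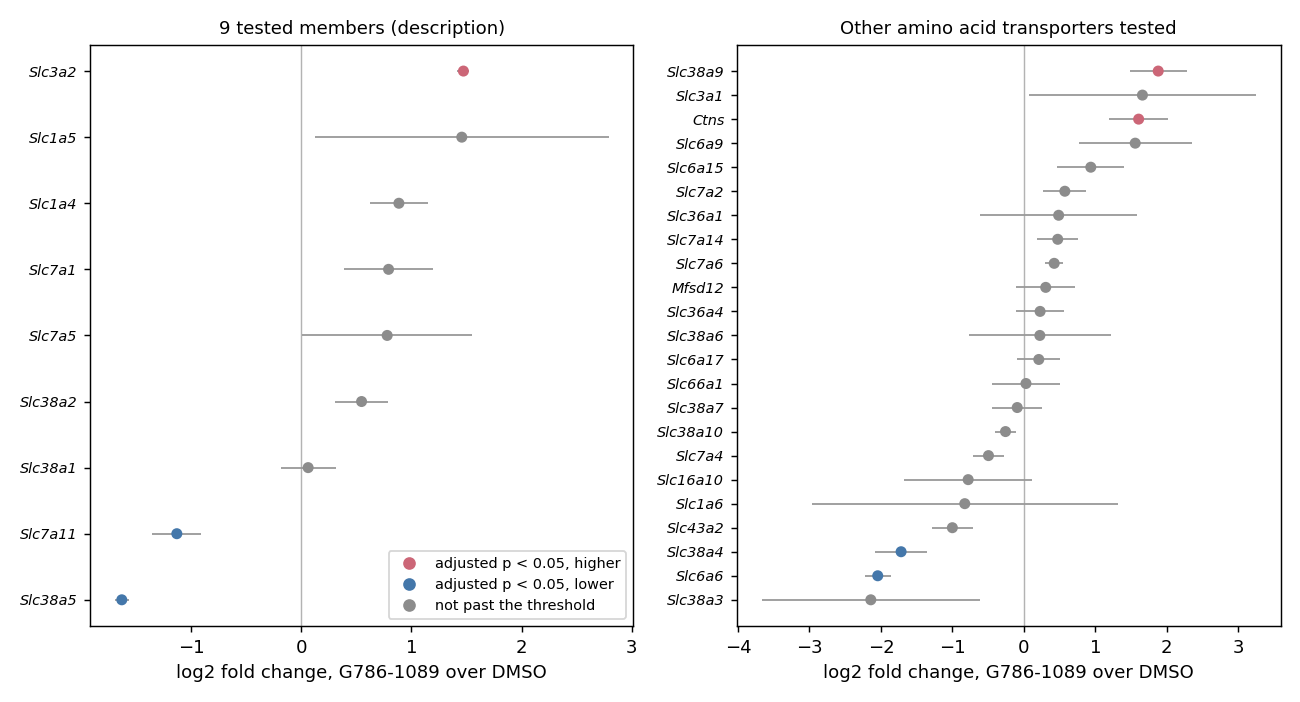
Log2 fold changes of G786-1089 over DMSO from edgeR for the 9 tested members (left) and the 23 tested genes of the list of other amino acid transporters (right); horizontal lines are 1 SE on each side, and colours mark an adjusted p under 0.05. Slc3a2 and Slc38a5 lie at 1.47 and -1.63 with short lines, while Slc1a5 and Slc7a5 carry wide ones. On the right, Slc38a9 and Ctns are higher and Slc6a6 and Slc38a4 lower.

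The other amino acid transporters of the plasma membrane and the lysosome form a list of 46 genes. Of these, 15 were listed at 0 in every library and 23 could be tested. In edgeR's test, 2 rose, 2 fell and 19 did not pass, which is 17.4% called beside the 14.8% of all genes, and their median log2 fold change was 0.22. Slc6a6, the transporter of taurine, fell from 28.8, 24.0 and 21.8 FPKM with DMSO to 5.48, 5.23 and 7.32 FPKM with the inhibitor. Every inhibitor library was far below every DMSO library (log2 fold change -2.04, SE 0.18, adjusted p = 0.00113 in edgeR). Slc38a4, which carries neutral and some cationic amino acids, fell from 12.9, 9.98 and 9.51 to 5.14, 2.24 and 2.44 FPKM (log2 fold change -1.72, SE 0.36, edgeR adjusted p = 0.0238).

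The genes that rose were Slc38a9 and Ctns. Slc38a9, which reports lysosomal arginine to mTORC1, rose from 0.40, 0.49 and 0.43 to 0.87, 2.19 and 1.77 FPKM (log2 fold change 1.88, SE 0.40, edgeR adjusted p = 0.0245). Ctns, the exporter of cystine from lysosomes, rose from 6.76, 2.23 and 5.69 to 15.3, 16.9 and 12.3 FPKM (log2 fold change 1.61, SE 0.41, edgeR adjusted p = 0.0439). Both sets of libraries were apart. The calls of Slc38a4 and Slc38a9 were lost without any library but inhibitor A (adjusted p 0.0600 to 0.0812 and 0.0724 to 0.0895), and that of Ctns without any library but DMSO B (0.0613 to 0.116). With the library letter as a block, Slc38a9 and Ctns did not pass (adjusted p = 0.0626 and 0.0889 in edgeR), and 0 of the list were called higher.

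Of 15 mitochondrial and vesicular amino acid carriers, 9 could be tested. In edgeR, 0 rose and 2 fell, which is 22.2% beside the 14.8% of all genes. At an unadjusted p under 0.05 in edgeR, 1 was higher, and DESeq2 called 1 higher, beside 1858 of all 15082 genes. The share of all genes at the unadjusted p is not given here. Slc25a29, a mitochondrial carrier of basic amino acids, fell from 48.2, 37.8 and 43.7 FPKM to 8.71, 12.1 and 13.1 FPKM (log2 fold change -1.93, SE 0.20, adjusted p = 0.00177 in edgeR). Sfxn1, which takes serine into mitochondria, fell from 110.9, 101.6 and 110.2 FPKM to 86.3, 55.8 and 58.2 FPKM (log2 fold change -0.68, SE 0.18, adjusted p = 0.0456 in edgeR). The groups were apart for both genes, but the call of Sfxn1 held only for all 6 libraries and without inhibitor A, with adjusted p of 0.0976 to 0.133 otherwise and of 0.0542 with the letter as a block in edgeR.

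What the transporters deliver is read inside the cell by the Rag GTPases, which recruit mTORC1 to the lysosome when amino acids are present, and by the kinase GCN2, which responds to uncharged tRNA. Of 42 genes of these arms and of the amino acid receptors, 38 could be tested. In edgeR, 9 rose, 2 fell and 27 did not pass, which is 28.9% beside the 14.8% of all genes, and 23.7% higher beside 6.98%. Their median log2 fold change was 0.31. Libraries of the treatments did not overlap for 13 genes that were higher and 8 that were lower, beside 18.2% and 18.5% of all tested genes. By the filter of the study, 8 were higher and 4 lower, beside 6.25% and 4.16%. This list, like the other lists, was chosen with earlier results of these data known. Its shares are therefore a description, and no excess over all genes is read from them. Its counts under other settings are given in the last section. The receptors Casr and Gprc6a were listed at 0 in all libraries, and Tas1r1 and Tas1r3 were too low to test.

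Of the 4 Rag genes, 2 rose, 1 fell and 1 did not pass, beside 6.98% higher and 7.8% lower among all tested genes. A Rag dimer joins RagA or RagB with RagC or RagD. Rragd rose from 3.05, 3.02 and 3.30 FPKM with DMSO to 11.5, 15.6 and 12.7 FPKM with the inhibitor (log2 fold change 2.09, SE 0.17, adjusted p = 0.00075 in edgeR). Rragc rose from 3.06, 2.77 and 2.78 to 9.60, 9.41 and 7.12 FPKM (log2 fold change 1.60, SE 0.23, adjusted p = 0.006 in edgeR). Rraga fell from 34.9, 43.4 and 45.8 to 13.8, 17.7 and 14.2 FPKM (log2 fold change -1.44, SE 0.18, adjusted p = 0.00362 in edgeR). Rragb was at 1.13, 1.71 and 0.71 FPKM with DMSO and at 1.76, 3.51 and 2.58 FPKM with the inhibitor (log2 fold change 1.15, SE 0.50, adjusted p = 0.193 in edgeR). In all 4 genes the libraries of the treatments were apart, beside 36.7% of all tested genes, and nothing is read from that count. Rragb was named after its values were seen.

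Among the proteins that act on the Rag GTPases, Flcn, which activates RagC and RagD as part of a complex with Fnip1 or Fnip2, rose from 7.85, 6.51 and 5.35 to 22.3, 28.3 and 27.3 FPKM (log2 fold change 1.99, SE 0.19, adjusted p = 0.00137 in edgeR). Its partner Fnip1 rose from 0.51, 0.23 and 0.54 to 2.92, 1.34 and 1.29 FPKM (log2 fold change 2.11, SE 0.52, adjusted p = 0.0395 in edgeR). Fnip1 fell outside the naming rule and was named after its values were seen, and its call was lost without any 1 library (adjusted p 0.0626 to 0.114).

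Sesn2, the leucine-binding Sestrin, rose from 21.4, 24.9 and 18.5 to 48.0, 48.3 and 50.5 FPKM (log2 fold change 1.18, SE 0.13, adjusted p = 0.00229 in edgeR). Castor1, the arginine-binding inhibitor of GATOR2, was listed at 0 in all DMSO libraries and at 4.83, 1.31 and 4.41 FPKM in the inhibitor libraries (adjusted p = 0.00714 in edgeR). Its mean of 6.05 ± 3.33 CPM (counts scaled to library size) was 120-fold the mean level of 3 counts per DMSO library. The lowest inhibitor library was 40.3-fold the highest such level. All 3 inhibitor libraries of both genes were above all DMSO libraries. The related genes Sesn1, Sesn3 and Castor2 went the other way, with inhibitor libraries all below DMSO libraries. Their log2 fold changes were -0.77, -1.01 and -1.77, and they did not pass (adjusted p = 0.0709, 0.0821 and 0.163 in edgeR). They were named after their values were seen.

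Both GATOR2 subunits that passed the test also work elsewhere, Seh1l in the nuclear pore and Sec13 in the nuclear pore and in vesicles that leave the endoplasmic reticulum. Seh1l rose from 10.4, 11.7 and 9.23 to 18.6, 18.0 and 15.03 FPKM (log2 fold change 0.72, SE 0.16, adjusted p = 0.0251 in edgeR). Sec13 fell from 214, 207 and 252 to 113, 122 and 93.4 FPKM (log2 fold change -1.03, SE 0.13, adjusted p = 0.00369 in edgeR). The subunits of 1 complex thus passed in opposite directions.

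Bmt2, the S-adenosylmethionine sensor SAMTOR, rose from 0.53, 0.54 and 0.62 to 1.49, 1.59 and 1.53 FPKM (log2 fold change 1.45, SE 0.31, edgeR adjusted p = 0.0251). In the GCN2 arm only Impact, which inhibits GCN2 activation, passed, and it rose from 7.04, 6.81 and 6.84 to 10.6, 16.2 and 12.4 FPKM (log2 fold change 0.92, SE 0.19, edgeR adjusted p = 0.0219). Without single libraries the adjusted p reached 0.0604 to 0.079 for Bmt2 (any library), 0.0501 to 0.0777 for Impact (any but inhibitor A) and 0.0726 to 0.0833 for Seh1l (inhibitor A or B, DMSO A or C). With the letter as a block, 5 genes of the list were called higher, and Bmt2, Impact, Fnip1 and Seh1l did not pass (adjusted p = 0.0984, 0.0661, 0.0661 and 0.0513 in edgeR).

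**Figure D4:**
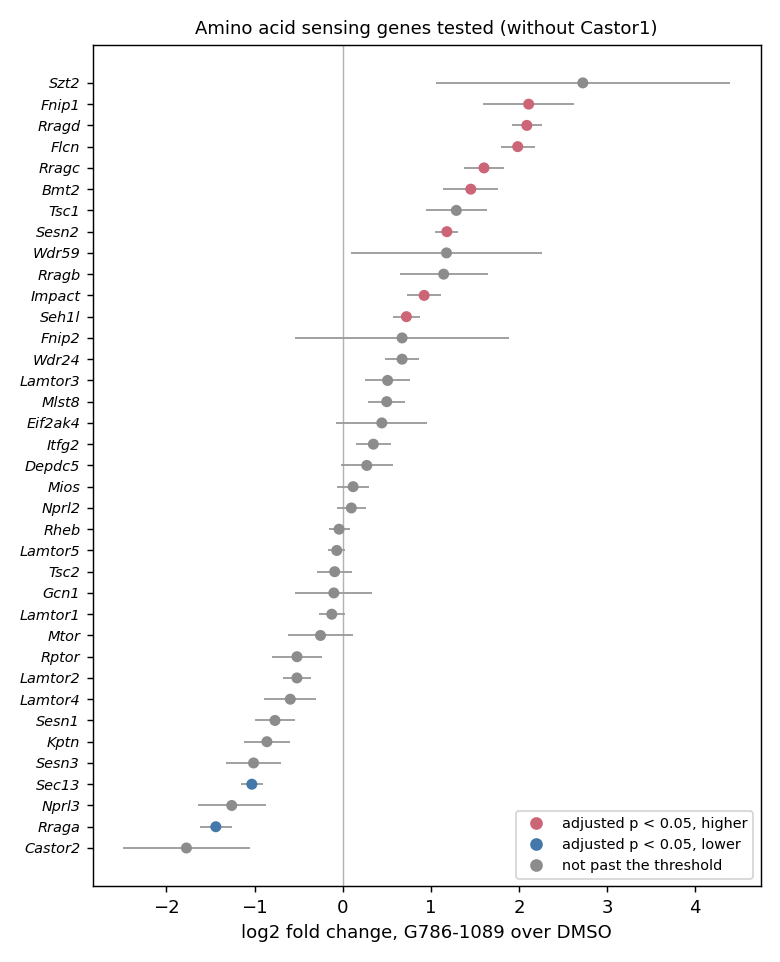
Log2 fold changes of G786-1089 over DMSO from edgeR for the 37 tested amino acid sensing genes other than Castor1, whose DMSO libraries all had 0 counts; horizontal lines are 1 SE on each side and colours mark an adjusted p under 0.05. Rragd (2.09), Flcn (1.99) and Rragc (1.60) lie at the right and Rraga (-1.44) and Sec13 (-1.03) at the left.

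Of 5 transcription factors known to act on transporter genes, 4 could be tested, while Epas1 was listed at 0. In edgeR 0 of the 4 passed, beside 14.8% of all tested genes, and with so few genes nothing is read from this 0. At an unadjusted p under 0.05 in edgeR, 2 were higher (Atf4 and Nfe2l2), and DESeq2 called 2 higher, beside 1858 of all 15082 genes. The share of all genes at the unadjusted p is not given here, so nothing is read from that count. Atf4, the factor of the amino acid response and a known activator of Slc3a2 and Slc7a11, was at 262, 236 and 187 FPKM with DMSO and at 298, 314 and 329 FPKM with the inhibitor. Its libraries did not overlap, with a log2 fold change of 0.46 (SE 0.13) and an adjusted p of 0.0592 in edgeR. Nfe2l2 (NRF2, a known activator of Slc7a11), Myc and Mycn had log2 fold changes of 0.90, 3.15 and 0.67 with adjusted p of 0.137, 0.258 and 0.353 in edgeR. ATF4 is regulated chiefly at translation, which counts of its RNA do not measure.

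The genes whose pattern was most like that of each of the 2 leading members were picked by Pearson's r of log2 CPM over the 6 libraries, among 7899 genes. For Slc3a2 they were Ddit3 (CHOP, a transcription factor of the stress response), Mapk7 and Mdm2. Ddit3 had r = 0.999 and means of 19.8 FPKM with DMSO and 302 FPKM with the inhibitor. For Slc38a5 they were the alpha tubulin genes Tuba1a and Tuba1c and the gene Gm14150. Like those tubulin genes, Gm14150 matched a 373-base stretch of Slc7a11, at 96.5% identity. Whether its counts came from tubulin reads was not tested. Values of r over 0.95 were reached by 384 genes for Slc3a2 and by 633 for Slc38a5. The 6 points share a 2-group design, so that any gene with a clear difference and little spread has a high r.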

How the data were processed

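The authors sequenced Smart-seq2 libraries, which do not keep the strand, from both ends. The submitters' processing notes name Picard 2.19.2, STAR 2.7.9a, DESeq2 1.34.0, R 4.1.3 and the build GRCm38 (mm10). The deposited counts are whole numbers per gene, made by the authors by counting alignments on Ensembl transcripts in Union mode irrespective of strand and summing them per gene, without normalization. The authors also deposited FPKM of the same genes, whose making is not given in the sources used here. FPKM are normalized values and were used to compare levels between genes.

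Counts were tested with edgeR 4.0.16 in R 4.3.3: filterByExpr (minimum count 10, minimum total 15), TMM, the quasi-likelihood test and Benjamini-Hochberg adjustment over all 15082 tested genes. The SE is the absolute log2 fold change over the square root of F. For 3 libraries against 3, the smallest p of an exact permutation test is 0.1. Alternatives were DESeq2 1.42.0, RLE or library size only, other count filters, limma-trend (limma 3.58.1) on log2(FPKM + 1) or log2(FPKM + 0.1) with an FPKM minimum of 1 in 3 libraries or none, gene length offsets, a replicate block, each library left out, and the filter the study used (adjusted p at most 0.1, absolute log2 fold change at least 1). Even numbers made up 78.1% of the counts between 1 and 10, so counts may not be independent fragments, and the floor of 3 counts covers counting error only. Chi-square tests showed that libraries of a treatment differed by more than counting error. Scripts were tested on simulated data.

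The members and lists were chosen with earlier results of these data known. Named are the 10 members, the light chains, from each other list up to 8 called genes in each direction by smallest p, and the 3 genes most like Slc3a2 and like Slc38a5 (mean log2 CPM at least 3). The study states that samples of a replicate came from a shared batch of cells, but column letters A to C could not be matched to replicate numbers of the labels. Deviations from the treatment means correlated by only 0.0151, 0.00274 and 0.0251 between libraries of the same letter, so pairing by letter is uncertain, and it was used as a block only as an alternative. Genes were matched by identifier to GENCODE vM21 (55227 of 55487, 99.3% at the same coordinates). Near-identical stretches were found with blastn 2.17.0 at 95% identity and 100 bases. Tables and figures used Python 3.11.15, pandas 2.3.3 and matplotlib 3.10.9. A planned comparison of protein sequences was not run. A marker gene is not reported here.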

Additional observations from a re-analysis of the deposited data

How the results depend on the processing

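Slc6a6, Slc25a29, Rragd, Flcn, Sesn2, Rragc and Rraga kept their direction and an adjusted p under 0.05 in all 17 alternative settings. Slc38a4 did so in 12, Slc38a9 in 7 of 15 and Ctns in 7. Of the members, Slc3a2 and Slc38a5 did so in all 17, Slc7a11 in 13 and Slc1a4 in 6. The contrast chose the members, so nothing is read from their numbers. Over named genes, 359 comparisons with an alternative kept their direction and side of the threshold, 63 lost the call, 8 gained one and 7 reversed. The reversals were Slc7a5 without inhibitor library B (-0.52, with 1.18 as the highest value without a single library), Slc1a5 without inhibitor library B (-0.61, highest 2.03) and Slc38a1 with gene length offsets (-0.28), with the replicate block and gene length offsets (-0.27) and without single libraries (-0.075 to 0.27), and none of these 3 genes was called. Members called higher numbered 2 with library size only, DESeq2, at least 10 counts in every library, and limma on log2(FPKM + 1) or log2(FPKM + 0.1), and 1 to 2 without single libraries. Members called lower numbered 1 with limma on log2(FPKM + 1) without a minimum and 1 to 2 without single libraries. Nothing is read from these counts of members, and the numbers over all genes are given below. Other transporters called higher numbered 1 with at least 1 count in any library, limma on log2(FPKM + 1) or log2(FPKM + 0.1) and gene length offsets, 0 with limma without a minimum and with the replicate block, alone or with gene length offsets, and 0 to 1 without single libraries. Those called lower numbered 1 to 2 without single libraries. Sensing genes called higher numbered 5 with the replicate block, 4 with the block and gene length offsets and 5 to 7 without single libraries. Those called lower numbered 8 with DESeq2, 5 with at least 10 counts in every library, 7 and 6 with limma on log2(FPKM + 1) and log2(FPKM + 0.1), 4 with gene length offsets, 1 with the block and gene length offsets, 4 by the filter the study used and 2 to 3 without single libraries. Over all genes, those higher numbered 1630 with library size only, 1858 with DESeq2, 524 with the replicate block, 374 with the block and gene length offsets, and 545 to 613 without single libraries, from 1053. They numbered 1291 of 12182 with at least 10 counts in every library, and 1379 and 1306 of 10633 with limma on log2(FPKM + 1) and log2(FPKM + 0.1). With at least 1 count in any library they were 858 of 23783, with limma without a minimum 781 of 23783, and with gene length offsets 841 of 15082. Those lower numbered 1811, 708, 621 and, by the filter the study used, 628 under DESeq2, the block, the block with gene length offsets and that filter, and 706 to 943 without single libraries, from 1177. They numbered 1294 of 12182 with at least 10 counts in every library, and 1648 and 1577 of 10633 with limma on log2(FPKM + 1) and log2(FPKM + 0.1). With limma without a minimum they were 1102 of 23783, and with gene length offsets 1169 of 15082. The causes were not tested, except that leaving out a library leaves fewer samples. Library size only moved the median log2 fold change of all genes from 0.041 to 0.25 and the share of higher calls from 47.2% to 67.2% (1630 against 796 lower). The replicate block by letter changed no call of a named gene other than those of Slc38a9, Ctns, Sfxn1, Impact, Bmt2, Seh1l and Fnip1. The light chain ratio was 9.9996 to 10.3 with DMSO and 22.9 to 26.5 with the inhibitor without single libraries. The order of levels was the same on TMM counts per kilobase. Those lengths were taken from the counts over the FPKM, so within a library the order could not differ, and this is no separate check. Counts ranged from 0 to 56 over libraries for Slc7a3, from 10 to 894 for Slc1a5 and from 150 to 1557 for Slc7a5.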
